A study of Mus musculus with 6 samples.

Results

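The genes described here are 8 members of the MAGE family, the melanoma antigen genes, measured in whole mouse testis. Every probe set whose platform symbol was exactly Magea5, Mageb16, Maged1, Maged2, Magee1, Mageh1, Magel2 or Ndn was taken, which gave 16 of the 45037 probe sets tested and 8 of the 18193 genes with a symbol of their own. Ndn had 8 probe sets, Maged2 had 2 and each other gene had 1. They were chosen by symbol with their levels and their differences between knockout and wild type already known, so these values are given as a description and support no claim about the family. Affymetrix arrays of testis RNA from mice aged 5 weeks made up the study: 3 arrays came from wild-type mice and 3 from mice whose genotype is labelled Phf13 knockout. Strain, the nature of the knockout allele, the cells in which it was deleted and whether each array stood for another animal are not stated in the labels. The p-values therefore measure the spread between these arrays, which may be technical.

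MAGE proteins share a conserved MAGE homology domain, through which many of them bind RING-type ubiquitin ligases and steer their activity. Type I genes, such as those of the MAGE-A and MAGE-B subfamilies, lie mostly on the X chromosome, are largely restricted to germ cells and are known as cancer-testis antigens because many tumours express them again. Type II genes, which include the MAGE-D, MAGE-E and MAGE-H genes, Magel2 and the necdin gene Ndn, are expressed in many tissues. Ndn and Magel2 lie close together on mouse chromosome 7 and are imprinted, being expressed from the paternal allele; the human counterparts lie in the Prader-Willi region. In testis, X-linked genes are transcribed in somatic cells and spermatogonia and are silenced in spermatocytes during meiosis.

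Methylation of CpG dinucleotides in promoters is known to keep type I genes and the maternal Ndn allele silent, so the 250 bases before the annotated start are shown for the type I genes and for a broadly expressed X-linked gene and an imprinted gene. They come from RefSeq with build GRCm38.p6, run 5′ to 3′ on the strand of the gene, and have each CpG in capitals. Magea5 lies at chrX:155061554-155061803 (minus strand), Mageb16 at chrX:79671436-79671685 (minus strand), Maged1 at chrX:94542026-94542275 (minus strand) and Ndn at chr7:62348027-62348276 (plus strand).
Magea5: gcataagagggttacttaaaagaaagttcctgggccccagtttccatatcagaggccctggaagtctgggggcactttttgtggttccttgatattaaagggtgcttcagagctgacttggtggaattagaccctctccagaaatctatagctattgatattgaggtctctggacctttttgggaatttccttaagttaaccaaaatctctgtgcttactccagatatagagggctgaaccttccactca
Mageb16: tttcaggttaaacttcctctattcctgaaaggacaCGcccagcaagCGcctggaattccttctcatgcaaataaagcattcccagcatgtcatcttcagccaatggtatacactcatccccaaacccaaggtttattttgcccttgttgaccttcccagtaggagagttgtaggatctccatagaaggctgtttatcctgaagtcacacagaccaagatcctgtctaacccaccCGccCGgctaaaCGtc
Maged1: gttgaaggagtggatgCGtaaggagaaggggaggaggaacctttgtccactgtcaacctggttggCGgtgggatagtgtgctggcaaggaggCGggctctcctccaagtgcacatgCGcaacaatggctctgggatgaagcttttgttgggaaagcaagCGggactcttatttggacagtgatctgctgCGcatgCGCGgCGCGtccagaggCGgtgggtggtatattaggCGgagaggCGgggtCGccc
Ndn: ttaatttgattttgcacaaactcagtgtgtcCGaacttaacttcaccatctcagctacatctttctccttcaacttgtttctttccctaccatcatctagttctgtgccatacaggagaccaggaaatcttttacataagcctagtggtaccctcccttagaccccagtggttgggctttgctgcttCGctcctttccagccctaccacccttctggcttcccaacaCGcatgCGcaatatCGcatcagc
These stretches differ in CpG content. The Magea5 stretch held 0 CpG, that of Mageb16 held 5, that of Ndn 5 and that of Maged1 14. The median over 32841 promoter stretches of the same length was 6, and 92.1% of them held at least 1. All 8 members had an entry: Magel2 held 7, Magee1 10 and Mageh1 11, and the 4 annotated starts of Maged2 held between 7 and 16. Of 4 motifs searched on both strands, GGGCGG was found before Mageb16, Magee1, Mageh1, Magel2 and 2 of the 4 Maged2 starts (32.8% of all stretches), CCAAT before Mageb16 and Mageh1 (33.9%), and CCGGAAG (6.91%) and TGACGTCA (1.55%) before none of the members. No binding or methylation was measured in these samples.

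Phf13, the targeted gene, checks the labels: its probe set read 9.55, 9.47 and 9.56 in wild type and 6.71, 6.6 and 6.55 in knockout, so Phf13 fell by 2.91 in log2 terms (SE 0.09; adjusted p = 7.7e-06 in limma). The defining markers of the labelled tissue were present: the probe sets of 13 spermatid genes averaged 12.76 to 12.82 per array, near the top of the scale. The mean of the control probe sets for 18S ribosomal RNA split the arrays in 2, with both genotypes on each side. Wild type 1, wild type 2 and knockout 1 read 12.34, 12.67 and 12.03, and wild type 3, knockout 2 and knockout 3 read 10.71, 9.87 and 9.69. These are called the high-18S and the low-18S set, and differences inside each are given beside those over all arrays. Inside each set the knockout arrays also read lower for 18S than the wild-type arrays. The 3′ minus 5′ actin control value was 0.75 to 0.89 in the high-18S set and 0.56 to 0.59 in the low-18S set. In all, 25 probe sets were higher and 20 lower in knockout at a limma adjusted p under 0.05.

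Every member probe set had a higher mean in knockout than in wild type, by 0.09 to 0.85 on the log2 scale, and 0 of the 16 passed the adjusted threshold. Over all probe sets 0.0555% passed as higher and 0.0444% as lower. The median difference of the 16 was 0.38, against 0.0033 over all probe sets, of which 50.6% lay above 0. At an unadjusted p under 0.05, 11 of 16 were higher (6.81% of all probe sets) and 0 lower (8.31%). In 7 of 16 all knockout arrays lay above all wild-type arrays (8.62% of all). The smallest limma adjusted p was 0.167. These counts depended on single arrays: without knockout 1, 3 probe sets (Mageb16 and 2 of Ndn) passed the adjusted threshold as higher, where 140 or 0.311% of all did. The 11 became 7 without wild type 3 (7.41% of all) and 7 without knockout 3 (4.37% of all). With array weights, 5 passed as higher, as did 3.67% of all probe sets. Probe sets bind their targets with different strength and 10 of the 16 measure Ndn or Maged2, so the levels of different probe sets give no order of transcript abundance and the 16 are not independent. In bulk tissue a difference in the number of cells that express a gene and one in RNA per cell cannot be told apart.

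**Figure D1:**
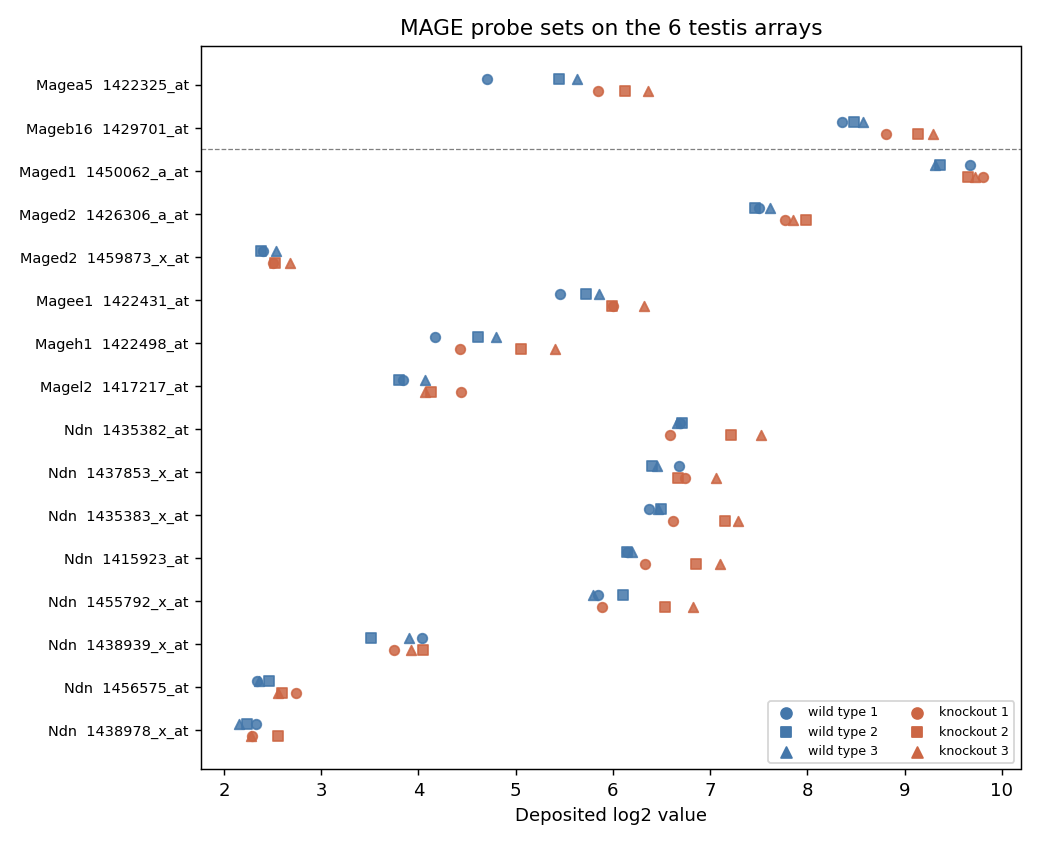
Deposited log2 values (x axis) of the 16 MAGE probe sets (y axis) on the 6 arrays; each point is 1 array, blue for wild type, orange for knockout, with the marker shape giving the replicate. The dashed line parts the germline-restricted genes, above it, from the broadly expressed ones. In Magea5 and Mageb16 all knockout arrays lie above all wild-type arrays, as in 5 of the 14 broadly expressed probe sets. The same held for 8.62% of all probe sets and 41.6% of the other X-linked genes. Several Ndn probe sets have knockout 1 beside the wild-type arrays.

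Of the germline-restricted genes, Magea5 had the largest difference of all members over the 6 arrays; without wild type 1 it was 0.57, below the 0.59 of an Ndn probe set. Its probe set, 1422325_at, read 4.71, 5.45 and 5.63 in wild type and 5.85, 6.13 and 6.36 in knockout. All knockout arrays lay above all wild-type arrays, with wild type 1 well below the rest. Wild type averaged 5.26 ± 0.49 and knockout 6.11 ± 0.26 (SD, n = 3 each), a difference of 0.85 (SE 0.23, limma adjusted p = 0.213), with a 95% interval from 0.32 to 1.38. In the high-18S set the difference was 0.77 and in the low-18S set 0.62. With runs of consecutive title codes as a block it was 0.52, as was that of Ndn probe set 1415923_at. The first run holds wild type 1 alone and the last is the low-18S set. This block therefore overlaps with leaving wild type 1 out and with the 18S sets. Magea5 encodes a MAGE-A protein of the type that binds RING ligases.

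Mageb16, a MAGE-B gene of the X chromosome, had the smallest adjusted p of the members. It read 8.36, 8.48 and 8.57 in wild type and 8.81, 9.14 and 9.29 in knockout. Here too the genotypes did not overlap, and the gap between the highest wild-type and the lowest knockout array separated 8.57 from 8.81. The difference was 0.61 (SE 0.13, limma adjusted p = 0.167), from 8.47 ± 0.11 to 9.08 ± 0.25 (SD, n = 3 each), and it was 0.39 in the high-18S and 0.65 in the low-18S set. Mageb16 was bright, above 84.9% of all probe sets in wild type, whereas the Magea5 probe set lay at the middle, above 49.7%.

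Other MAGE genes outside the 8 were measured beside these. A probe set annotated to 6 Magea genes at once, Magea5 among them, names no single gene; it read 5.63, 5.80 and 6.19 in wild type and 6.22, 6.80 and 6.85 in knockout, a difference of 0.75 (SE 0.20, limma adjusted p = 0.207). Its annotated targets include Magea5, so it is no separate measurement of another gene. Magea6, 1 of those 6 genes, has a probe set of its own that was dim: 3.42, 3.65 and 3.75 in wild type against 3.99, 4.38 and 4.38 in knockout, a difference of 0.64 (SE 0.14, limma adjusted p = 0.163). The type I genes did not all have such differences: Magea4, also X-linked and dim at 4.53 in wild type, differed by 0.18 (SE 0.10). Mageb3, which is placed on chromosome 2 and averaged 7.58 in wild type, differed by 0.04 (SE 0.10). Among type II genes, Magef1 on chromosome 16, dim at 4.22 in wild type, differed by 0.30 (SE 0.13). Nsmce3, the MAGE subunit of the Smc5/6 complex, differed by -0.08 (SE 0.12). Of these 5 genes with a probe set of their own, 4 lay above 0, 0 passed the adjusted threshold and 2 had an unadjusted p under 0.05, both higher.

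The broadly expressed X-linked genes had smaller differences than the germline-restricted ones, 0.13 to 0.44 against 0.61 and 0.85; no test compared them. Maged1, an adaptor of the neurotrophin receptor and of cell death signalling, was the brightest, with 9.67, 9.36 and 9.31 in wild type and 9.81, 9.65 and 9.73 in knockout. The genotypes overlapped, because wild type 1 lay above knockout 2. Its difference was 0.28 (SE 0.12, limma adjusted p = 0.304), 0.30 in the high-18S and 0.38 in the low-18S set.

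Maged2, known for its part in salt transport in the fetal kidney, read 7.50, 7.46 and 7.62 in wild type and 7.77, 7.99 and 7.85 in knockout with probe set 1426306_a_at. All knockout arrays were above all wild-type arrays, and the difference of 0.34 (SE 0.10, limma adjusted p = 0.216) was 0.29 in the high-18S and 0.30 in the low-18S set. The other Maged2 probe set, 1459873_x_at, was dim at 2.44 ± 0.09 in wild type (SD, n = 3), brighter than 6.66% of probe sets only, and differed by 0.13 (SE 0.09).

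Magee1, which encodes a MAGE protein that binds alpha-dystrobrevin, read 5.46, 5.72 and 5.86 in wild type and 6.0, 5.99 and 6.32 in knockout. There was no overlap, and the difference was 0.42 (SE 0.14, limma adjusted p = 0.241). Mageh1, the gene of a short MAGE protein, read 4.17, 4.61 and 4.8 in wild type and 4.43, 5.06 and 5.40 in knockout. Knockout 1 lay inside the wild-type range, and the difference of 0.44 had an SE of 0.25 and an interval from -0.13 to 1.00. It was 0.04 in the high-18S and 0.43 in the low-18S set, and it rested on single arrays: 0.22 without knockout 3, 0.26 without wild type 1 and 0.70 without knockout 1.

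**Figure D2:**
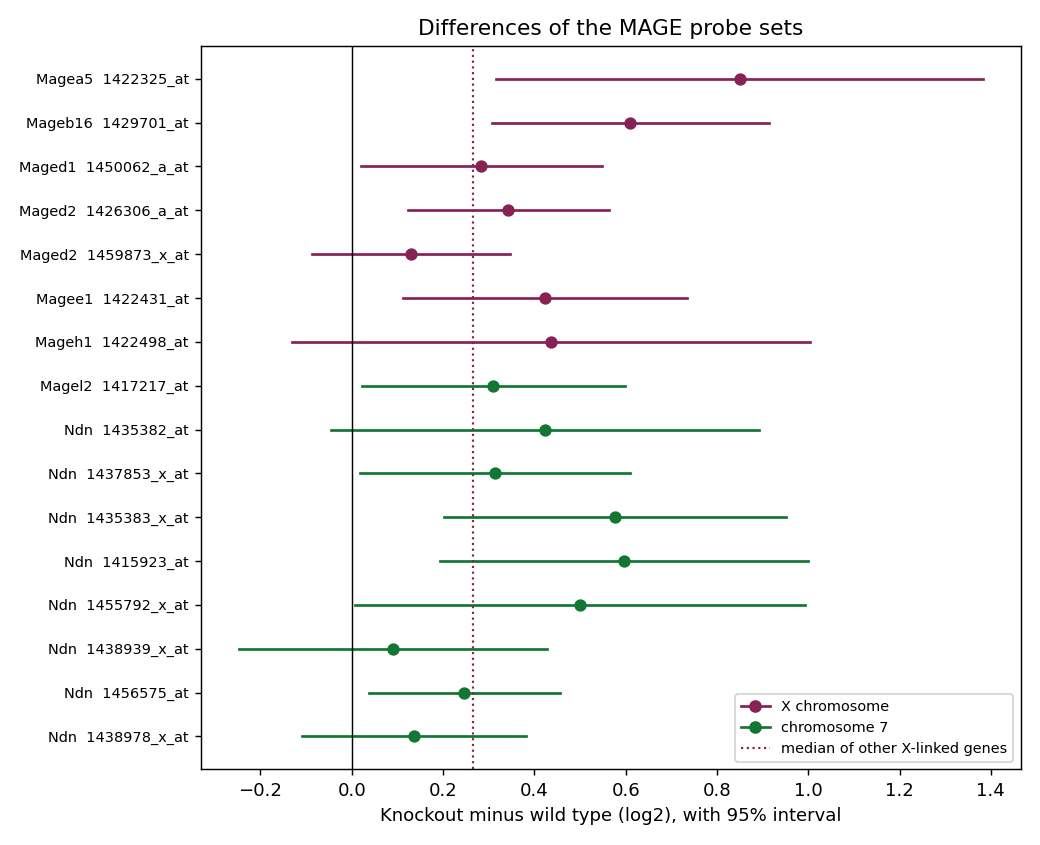
Difference between knockout and wild type (log2, x axis) of each MAGE probe set (y axis), with limma's 95% interval as a bar, for X-linked genes (purple) and chromosome 7 genes (green); the dotted line is the median of the other X-linked genes, 0.27. All 16 points lie right of 0, and Magea5 and Mageb16 lie farthest right.

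The imprinted pair on chromosome 7 gave unequal differences in the 2 sets of arrays, which hold 1 knockout or 1 wild-type array each, and no test was run inside a set. Ndn encodes necdin, a growth suppressor of neurons and other cells that binds E2F and p53 proteins. Its probe set 1415923_at read 6.15, 6.15 and 6.2 in wild type and 6.33, 6.86 and 7.10 in knockout. Knockout 2 and knockout 3 lay well above wild type, knockout 1 only just. The difference was 0.60 (SE 0.18, limma adjusted p = 0.224) over all arrays, 0.18 in the high-18S set and 0.78 in the low-18S set.

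The probe sets of Ndn did not give the same size of difference. The 5 with wild-type means above 5 differed by 0.31 to 0.60, and the 3 with wild-type means below 4 by 0.09, 0.25 and 0.14. In the brightest, 1435382_at, knockout 1 read 6.59 and was under the wild-type values of 6.69, 6.71 and 6.66, whereas knockout 2 and knockout 3 read 7.22 and 7.52; its difference of 0.42 was 0.68 without knockout 1 and 0.22 without knockout 3. Over the 8 probe sets the median difference was 0.09 in the high-18S set and 0.56 in the low-18S set. Of the 8, 5 carry the suffix x_at, by which the maker marks probe sets with probes that may match further transcripts.

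Magel2, whose protein acts with the ligase Trim27 on endosomal sorting, had the reverse split. It read 3.84, 3.80 and 4.07 in wild type and 4.44, 4.13 and 4.07 in knockout, so that knockout 3 equalled wild type 3. The difference of 0.31 (SE 0.13, limma adjusted p = 0.304) came to 0.62 in the high-18S and 0.03 in the low-18S set, and to 0.20 without knockout 1. The probe set was dim, above 28.4% of probe sets in wild type. Among the 18 genes of other organs, wild-type levels ran from 2.25 to 7.11 with a median of 4.36, so levels of Magel2, Mageh1, Magea5, Magee1 and all Ndn probe sets, and of the dim Maged2 one, are not above what such genes also reach. No detection call was used here.

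The imprinted neighbours of Ndn and Magel2 did not show a common direction. Of 5 measured, 3 lay above 0 and 2 below, with a median of 0.06, and 0 passed the adjusted threshold. Ube3a, a ubiquitin ligase gene of the same region that most tissues express from both alleles, differed by -0.24 (SE 0.09, limma adjusted p = 0.267), Peg12 by 0.15 and Atp10a by -0.11. Of 14 imprinted genes from other clusters, 11 lay above 0, the median being 0.12; an unadjusted p under 0.05 was reached by 3, all of them higher. Among them Peg3, a zinc finger gene, differed by 0.48 over all arrays, by 0.11 in the high-18S and by 0.85 in the low-18S set. Nnat differed by 0.54, by 0.80 and 0.15 in those sets, and Sgce by 0.41.

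**Figure D3:**
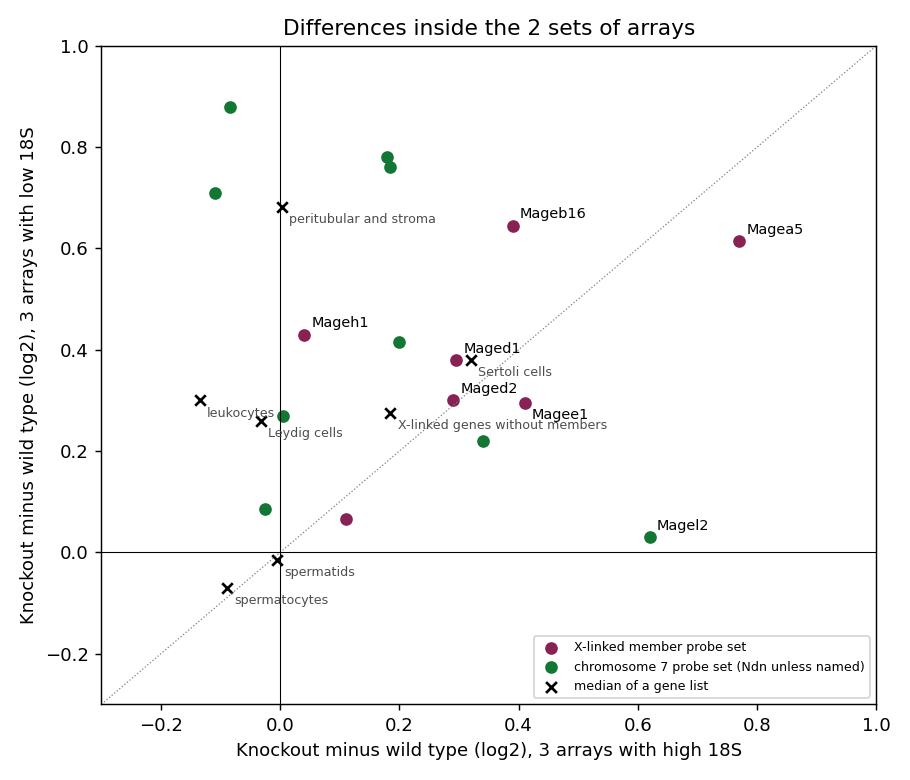
Difference between knockout and wild type (log2) inside the 3 arrays with high 18S (x axis) and inside the 3 with low 18S (y axis) for the 16 MAGE probe sets (points) and for the medians of gene lists (crosses); the dotted line marks equal differences. The bright Ndn points lie above the line and Magel2 lies below it, at 0.62 and 0.03; the high-18S set holds 1 knockout array and the low-18S set 1 wild-type array.

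Most genes of the X chromosome lay above 0, which bears on the 6 X-linked members. Of the other 611 X-linked genes, each with its brightest probe set, 547 or 89.5% lay above 0, with 0.27 as the median difference, whereas 50% of 17401 autosomal genes did, with a median of 0.00. The mean of the X-linked genes was 5.86, 5.90 and 5.97 on the wild-type arrays and 6.07, 6.21 and 6.26 on the knockout arrays. Their median was 0.19 in the high-18S and 0.28 in the low-18S set. All knockout arrays lay above all wild-type arrays in 41.6% of them, against 8.79% of autosomal genes, and 45.7% against 7.25% were higher at an unadjusted p under 0.05. As higher, 0 of the 611 (0%) passed the adjusted threshold, against 0.0747% of autosomal genes.

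Set beside the X chromosome, the broadly expressed members lay inside the bulk of its genes. The difference of Maged1 was larger than that of 51.9% of the other X-linked genes, that of Maged2 than 61.9%, that of Magee1 than 75.8% and that of Mageh1 than 78.4%. Mageb16 exceeded 94.8% and Magea5 99.3%. The median difference of X-linked genes grew with level, from 0.11 in the dimmest of 4 equal groups by wild-type level, through 0.22 and 0.33, to 0.40 in the brightest. Mageb16, Maged1 and Maged2 had levels of the brightest group, and there Maged1 at 0.28 and Maged2 at 0.34 lay below the median. Magea5, Magee1 and Mageh1 had levels of the group whose median was 0.22. On chromosome 7, with a median of 0.00 over 1413 genes, the Ndn probe set with the largest difference, 1415923_at, exceeded 99.3% of the other genes. The brightest Ndn probe set exceeded 98.2% and Magel2 94.9%. Those of Ndn with wild-type means below 4 exceeded 67.8%, 91.4% and 77.1%.

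**Figure D4:**
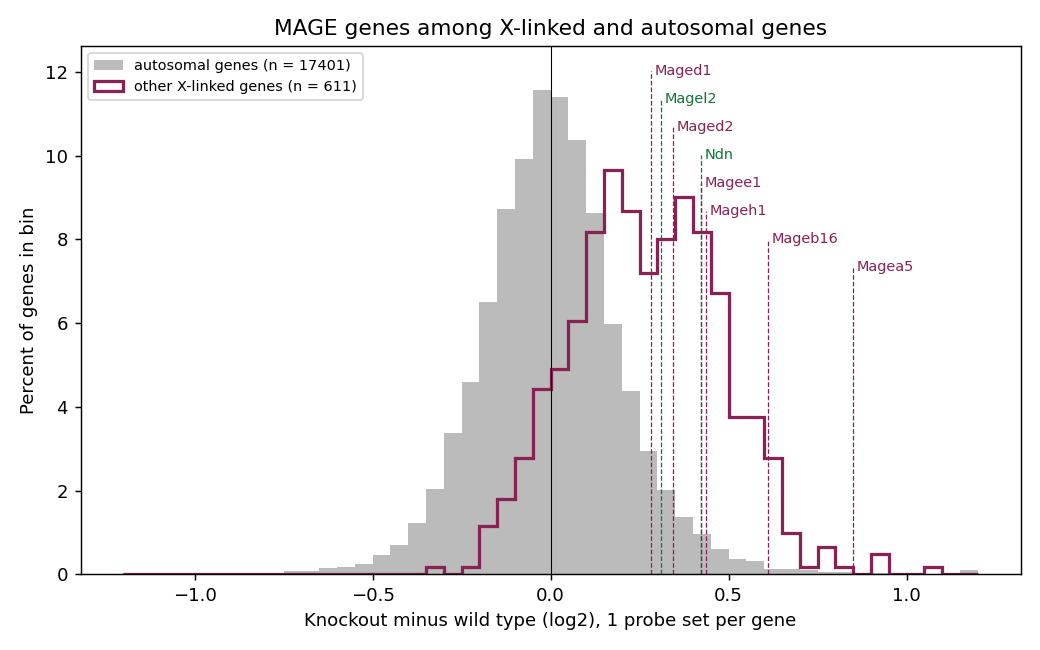
Percent of genes (y axis) by difference between knockout and wild type (log2, x axis, values beyond ±1.2 drawn in the end bins), for 17401 autosomal genes (grey) and 611 other X-linked genes (purple line), with the members marked by dashed lines at their brightest probe set. The X-linked curve is shifted to a median of 0.27, and only Mageb16 and Magea5 lie in its right tail.

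X-linked germ cell genes outside the MAGE family lay mostly above 0, with a median near that of the X-linked genes outside the members. Of 15 measured, 14 lay above 0, none below, and the median was 0.29, beside 0.27 for those X-linked genes. An unadjusted p under 0.05 was reached by 9, all higher, beside 45.7% of those X-linked genes. The adjusted threshold was passed by 0. Tex13a differed by 0.58 (SE 0.08, limma adjusted p = 0.0683), the RNA export factor gene Nxf3 by 0.52 (SE 0.08) and Cypt3, a gene of spermatids, by 0.48 (SE 0.09). The difference of Mageb16, 0.61, was larger than each of the 15, which ran from 0.0 to 0.59, and no test compared them.

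Genes of the ubiquitin system whose products work with MAGE proteins, 6 of ligases and the deubiquitinase gene Usp7, lay on both sides of 0. Of these 7 genes, 3 lay above 0 and 4 below, with a median of -0.01 and 0 past the adjusted threshold. Pja1, the X-linked gene of the Praja ligase that Maged1 binds, differed by 0.44 (SE 0.10, limma adjusted p = 0.181), and Lnx1, on chromosome 5, by 0.61 (SE 0.14, limma adjusted p = 0.185). Pja2 differed by -0.13. Of 7 Smc5/6 complex genes, whose products keep replicated chromosomes in order, 6 lay below 0 the median being -0.11, and none reached an unadjusted p of 0.05; Slf1 differed by -0.18, Slf2 by -0.25 and Smc5 by -0.11. Of 10 genes of the retromer and WASH complexes, on which Magel2 acts, 7 lay above 0 and the median was 0.04; none reached an unadjusted p of 0.05. Their smallest p belonged to Washc3 at -0.17, Washc5 at 0.17 and Vps26a at -0.14. Of 11 genes reported to bind necdin or Maged1 proteins, 7 lay above 0 with a median of 0.16; 4 had an unadjusted p under 0.05 as higher and 1 as lower, and 0 passed the adjusted threshold. The leading genes were X-linked: Bex3 at 0.40, the apoptosis inhibitor Xiap at 0.38 and Bex2 at 0.54.

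Levels of testis cell type markers are given beside the members; their part in the differences was not tested. The mean of 17 Sertoli cell genes ran from 8.68 to 8.73 in wild type and from 8.98 to 9.13 in knockout, with 16 above 0 and a median of 0.41, and their medians in the high-18S and low-18S sets were 0.32 and 0.38. For 10 genes of peritubular cells and stroma the ranges were 7.49 to 7.92 and 7.93 to 8.24, with 9 above 0. Their median was 0.00 in the high-18S and 0.68 in the low-18S set. The latter rests on wild type 3, where the list mean was 7.49, against 7.87 and 7.92 in wild type 1 and wild type 2. Over all arrays the median of that list was 0.18. The 3 genes with the smallest p were Dcn at 0.95, Acta2 at 0.49 and Pdgfra at 0.55. Of the others, named after their values were seen, Tcf21 at 1.00 had the largest difference of the list and Col1a2 differed by 0.21. Tagln, Myh11, Des, Col1a1 and Cnn1 lay between -0.11 and 0.16. The 9 leukocyte genes ran from 5.76 to 5.98 and from 5.69 to 6.36, with all 9 above 0, and had medians of -0.14 and 0.30 in those sets. The 6 Leydig cell genes ran from 8.60 to 8.86 and from 8.76 to 9.20, with all 6 above 0, and had medians of -0.03 and 0.26 in those sets.

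X-linked germ cell genes were listed apart, and the lists of germ cell stages held autosomal genes only. Their medians lay between -0.17 and 0.07, beside 0.00 over all autosomal genes, and say nothing of X-linked genes in these stages. The 13 spermatogonial genes ran from 7.17 to 7.21 in wild type and from 7.13 to 7.28 in knockout, with 8 above 0 and a median of 0.07. The 13 spermatocyte genes ran from 10.50 to 10.60 and from 10.43 to 10.47, with 8 below 0 and a median of -0.17; Aurkc differed by -0.42, Spo11 by -0.29 and Ccna1 by -0.28. The 13 spermatid genes had a median of 0.01. The 7 endothelial genes had a median of 0.06 and the 5 adipose genes one of 0.34, among which Fabp4 differed by 2.21 with an SE of 0.53. None of the genes in these lists passed the adjusted threshold.

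The genes whose values ran most like those of Mageb16 over the 6 arrays were Agpat4 (Pearson r = 0.999), Tnks2 (0.998) and Syngr2 (0.997), among 12593 genes above the median level. They lie on chromosomes 17, 19 and 11 and differed by 0.49, 0.28 and 0.38 between genotypes. For Maged1 they were Abcc1 (0.990), Vdr (0.984) and Flvcr2 (0.982), with differences of 0.24, 0.19 and 0.20. These rest on 6 arrays that include both genotypes and are given as a description.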

How the data were processed

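Per the submitters' processing notes, the authors used Affymetrix Expression Console 1.4.1; the deposited log2 values hold 1 number per probe set and array. That the scale is log2 was inferred from the range, and quartiles were nearly equal between arrays. How values were summarized and normalized, and which build the annotation used, is not stated in the labels. The 64 control probe sets were left out, and the other 45037 were fitted in R 4.3.3 with limma 3.58.1 (lmFit on genotype, eBayes, two-sided, Benjamini-Hochberg, threshold 0.05), with no filter. Symbols were those of the platform annotation, where 34945 probe sets had 1 symbol, 932 several and 9160 none. Chromosomes came from the RefSeq table of GRCm38.p6 through the gene identifier. A gene was represented by its brightest probe set on average. No pair of arrays was alike enough to be a repeat (root mean square difference at least 0.17).

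Members, lists and alternatives were chosen with earlier results of these data known. The text covers every member probe set, though not each Ndn probe set is named by its number. Phf13, at most 3 genes of any other list by smallest p, and the 3 genes most like the brightest probe set of each class are also given. Beyond this rule, single values of other MAGE genes and of further peritubular and stroma genes were added after they were seen. On simulated data for this comparison with 45037 probe sets, 22%, 82%, 96% and 100% of 50 planted changes of 0.5, 1, 2 and 3 (log2) were recovered, and 8 of 44837 unchanged probe sets were called. Alternatives were blocks for replicate number, title code run and 18S set, a level filter, other normalizations and moderation, array weights, averaging probe sets, and each array left out.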

Additional observations from a re-analysis of the deposited data

How the results depend on the processing

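Over 14 alternatives, 217 of 218 values of the member probe sets kept a positive difference. The exception was the dim Ndn probe set 1438939_x_at without wild type 2, at -0.063 (from -0.063 to 0.20 over the arrays left out). Several alternatives could not reverse a sign, so this tally is no measure of robustness. The replicate block, the level filter and the changed moderation leave each difference as it was, and median centring shifts all probe sets alike. The count of members past the adjusted threshold as higher went from 0 to 5 with array weights (1654 or 3.67% of all probe sets), which gave knockout 1 the lowest weight, and from 0 to between 0 and 3 when an array was left out. The 3 appeared without knockout 1 (140 or 0.311% of all): Mageb16 (limma adjusted p = 0.0493) and Ndn probe sets 1415923_at (0.045) and 1435383_x_at (0.045). The 5 were these, Magea5 (0.0322) and Maged2 (0.0285). The count as lower was 0 in every alternative. At an unadjusted p under 0.05, 11 were higher, and 7 were without wild type 3 and 7 without knockout 3. The median difference of the germline-restricted probe sets was 0.73 and ran from 0.52, with title code runs as a block, to 0.86; that of the 14 broadly expressed probe sets was 0.33 and ran from 0.28 to 0.42. Phf13 passed in every alternative.

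The replicate number as a block gave 0 members past the threshold, 22 probe sets higher and 6 lower over the whole table. Samples with the same number deviated together with correlations of 0.26, 0.07 and 0.12, and nothing in the labels pairs them. Over the whole table, 25 higher and 20 lower became 12 and 4 with title code runs as a block, 66 and 44 with an intensity trend and robust moderation, 37 and 42 among probe sets above the median level, 1654 and 1532 with array weights, and between 8 and 178 higher and between 4 and 998 lower when an array was left out (the most without wild type 3). The median of the other X-linked genes, a result added after seeing the data, was 0.27 and ran from 0.22 to 0.36. The cause of these changes was not tested. Genes of other organs reach wild-type levels up to 7.11, which limits what Magea5, Magee1, Mageh1, Magel2, Ndn and the dim Maged2 probe set can show.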
